A study of Mus musculus with 42 samples.

Results

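The genes described here are the core circadian clock genes Arntl, Npas2, Nr1d1, Nr1d2, Per1, Per2, Per3 and Ciart and the clock output genes Dbp and Tef, 10 of the 20462 genes listed in the deposited tables. They were taken by symbol from the tables of a mouse colon study. The list was chosen by the lower normalized counts of Dbp and Nr1d1 in Mtg16 P209T crypts than in wild-type (WT) crypts after colitis, so that contrast is described below and not tested. The study asked how the transcriptional corepressor MTG16, encoded by Cbfa2t3, and its binding to E proteins shape the colon epithelium. In the authors' gene models (GRCm38) Dbp lies at chr7:45705088-45710203 on the plus strand, Nr1d1 at chr11:98767932-98775333 on the minus strand and Arntl at chr7:113207465-113314126 on the plus strand. The question put to the clock genes was whether their levels differed between genotypes, colon segments and treatments by more than they differed between single libraries of the same group.

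All mice were C57/BL6 and at least 8 weeks old. Mtg16-/- mice carried a germline loss of Mtg16, and T/T mice were homozygous for the germline point mutation P209T, which weakens MTG16 binding to E proteins. WT mice came from each of the 2 colonies, bred separately, and are compared here mainly with the mutants of their own colony. Untreated (baseline) crypts came from the proximal 5 cm of colon (2 WT and 2 Mtg16-/- libraries, 2 WT and 2 T/T libraries) and the distal 5 cm (4 WT and 4 Mtg16-/-, 3 WT and 4 T/T). Injured distal crypts were taken after 5 days of 2% dextran sodium sulfate (DSS), which damages the epithelium, and 4 days of recovery (3 WT and 4 Mtg16-/-, 3 WT and 3 T/T). Distal tumors of the T/T colony (3 WT and 3 T/T) followed 10 mg/kg of the carcinogen azoxymethane (AOM) and 3 cycles of 3% DSS of 4 days each, with 16 days of recovery after each. Crypts were freed by chelation, whereas tumors were dissected whole. Because the deletion and P209T are germline, all cells of the mouse carry them. The hour of harvest is not given in the sources used here, and the labels do not say which libraries share an animal, so p-values measure only the spread between these libraries.

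The mammalian clock is a feedback loop that runs in nearly every cell. BMAL1, the product of Arntl, pairs with CLOCK or NPAS2, binds E-boxes (CACGTG) and turns on the Per genes, Ciart, Nr1d1, Nr1d2, Dbp and Tef. PER proteins act with the cryptochromes to repress this pair, CIART also represses it, and the nuclear receptors REV-ERBα and REV-ERBβ (Nr1d1 and Nr1d2) repress Arntl and Npas2 through RORE sites. DBP and TEF are transcription factors that carry the rhythm to further genes through D-boxes. Arntl and Npas2 are therefore called the positive arm here and the other 8 genes the negative and output arm, and in a running clock both arms peak at different times of day. In the gut, the clock is known for daily rhythms in digestion, barrier function and renewal of the epithelium.

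Some of these motifs stood in promoters of the 10 genes. RefSeq start-site windows (250 bases before the start site to 50 after, GRCm38.p6) were found for 9 of the 10 genes, all but Per2. Of all 32851 such windows, 7.15% held CACGTG, 1.66% held TTATGTAA or TTATGCAA (D-box) and 16.3% held AGGTCA (the core of a RORE), each sought on both strands and with no overlap between motifs. The 4 sequences below, 5′ to 3′ on the strand of the gene, are shown because they hold the E-boxes and D-boxes of genes whose levels ranged widely between libraries or differed after DSS. Capitals mark the motifs, and a match is a description of letters and not a binding site. Ciart, on the minus strand at chr3:95882179-95882478, had 3 E-boxes, at 116, 58 and 44 bases before the start site. Tef, on the plus strand at chr15:81811164-81811463, had 1 E-box at 138 bases before its start site, and the window of its other start site had 1 as well. Per1, on the plus strand at chr11:69098699-69098998, had all 3 kinds, an E-box, a RORE core read on the other strand (TGACCT) and a D-box, in that order, and the window of its other start site had none. Per3, on the minus strand at chr4:151044616-151044915, had 2 D-boxes, at 205 and 158 bases before the start site.
Ciart: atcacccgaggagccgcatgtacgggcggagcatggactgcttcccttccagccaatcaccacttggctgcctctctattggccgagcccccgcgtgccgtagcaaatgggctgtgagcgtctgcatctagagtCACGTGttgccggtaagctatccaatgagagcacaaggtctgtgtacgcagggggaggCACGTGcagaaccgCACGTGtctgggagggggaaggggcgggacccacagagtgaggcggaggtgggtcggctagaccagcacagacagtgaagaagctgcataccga
Tef: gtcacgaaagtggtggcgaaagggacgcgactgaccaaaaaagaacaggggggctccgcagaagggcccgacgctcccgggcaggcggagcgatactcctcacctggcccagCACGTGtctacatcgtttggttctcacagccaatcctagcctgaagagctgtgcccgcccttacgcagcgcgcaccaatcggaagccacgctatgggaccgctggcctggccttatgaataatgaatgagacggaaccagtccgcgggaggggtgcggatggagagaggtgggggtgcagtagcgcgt
Per1: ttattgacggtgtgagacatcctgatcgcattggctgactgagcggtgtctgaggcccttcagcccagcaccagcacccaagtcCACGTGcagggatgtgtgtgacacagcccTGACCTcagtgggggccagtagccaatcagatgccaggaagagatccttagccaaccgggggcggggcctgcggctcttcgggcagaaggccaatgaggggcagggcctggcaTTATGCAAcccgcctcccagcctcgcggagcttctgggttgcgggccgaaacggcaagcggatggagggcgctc
Per3: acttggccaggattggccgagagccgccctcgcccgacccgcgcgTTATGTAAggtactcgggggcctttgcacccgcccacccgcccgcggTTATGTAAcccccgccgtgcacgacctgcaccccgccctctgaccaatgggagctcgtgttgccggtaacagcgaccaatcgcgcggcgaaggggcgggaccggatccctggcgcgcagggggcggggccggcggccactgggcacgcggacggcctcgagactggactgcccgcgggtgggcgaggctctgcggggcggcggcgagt
Nr1d2 (chr14:18239057-18239356) held 1 RORE core, at 77 bases before its start site, and 1 of the windows of Arntl held 1. None of these letters stood in the windows of Dbp, Nr1d1 and Npas2.

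The 42 libraries fell into 14 groups, 9 tables and 6 sets that share the leading number of the sample label. Such a set is called a request here, and the labels do not say what the number marks. The tables hold normalized counts, that is, estimated reads of a gene divided by a size factor of the library within its table, and a level below is a normalized count unless stated. In 40 libraries the reads behind them were recovered, 32231389 to 74661922 per library (median 46168060). Comparisons across tables use these reads scaled together by TMM ("scaled reads"), with normalized counts in place of reads in the other 2 libraries. Cbfa2t3 was lower in all Mtg16-/- libraries than in all their WT libraries in the proximal colon (631 to 1057 against 1634 to 3221) and after DSS (427 to 595 against 1845 to 2519). In the distal colon at baseline the ranges touched (424 to 1095 against 1027 to 1809), and the mRNA of the P209T allele remained present (1509 to 2196 in T/T against 937 to 1040 in WT). The summed level of 5 epithelial markers was 518742 to 851370 scaled reads in crypts and 262200 to 387298 in tumors, and that of 5 fibroblast markers was at most 3879 in crypts and 97489 to 136929 in tumors. Some libraries after DSS stood apart in base composition. The level of low-GC genes relative to high-GC genes was shifted on the log2 scale by -2.09, -2.44 and -0.73 in the WT and by -0.76, -0.07 and -2.11 in the T/T libraries after DSS, and by -0.95 in T/T library 1 at distal baseline. In bulk RNA, fewer cells of a type and less RNA per cell cannot be told apart.

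Among libraries of the same group the clock genes ranged more widely than most genes. The spread within groups, pooled over the 14 groups as the SD of log2 scaled reads (28 degrees of freedom), was 1.91 for Dbp, the 32nd largest of 14638 genes, 1.47 for Ciart (93rd) and 1.20 for Tef (247th). Nr1d2, Nr1d1, Arntl, Per2 and Per3 had 0.83, 0.83, 0.82, 0.78 and 0.75, and Npas2 and Per1 had 0.64 and 0.63. For comparison, the median gene had 0.31, and 95% of genes lay below 0.94. Between the lowest and the highest library, Dbp ran from 26.2 scaled reads in WT library 1 of the T/T colony to 4807 in T/T library 4, both from distal baseline crypts of the same request. Among 12 other clock regulators the SD ran from 0.12 for Csnk1d, which encodes a kinase that phosphorylates PER, to 0.84 for Rora, whose product activates Arntl through RORE sites.

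**Figure D1:**
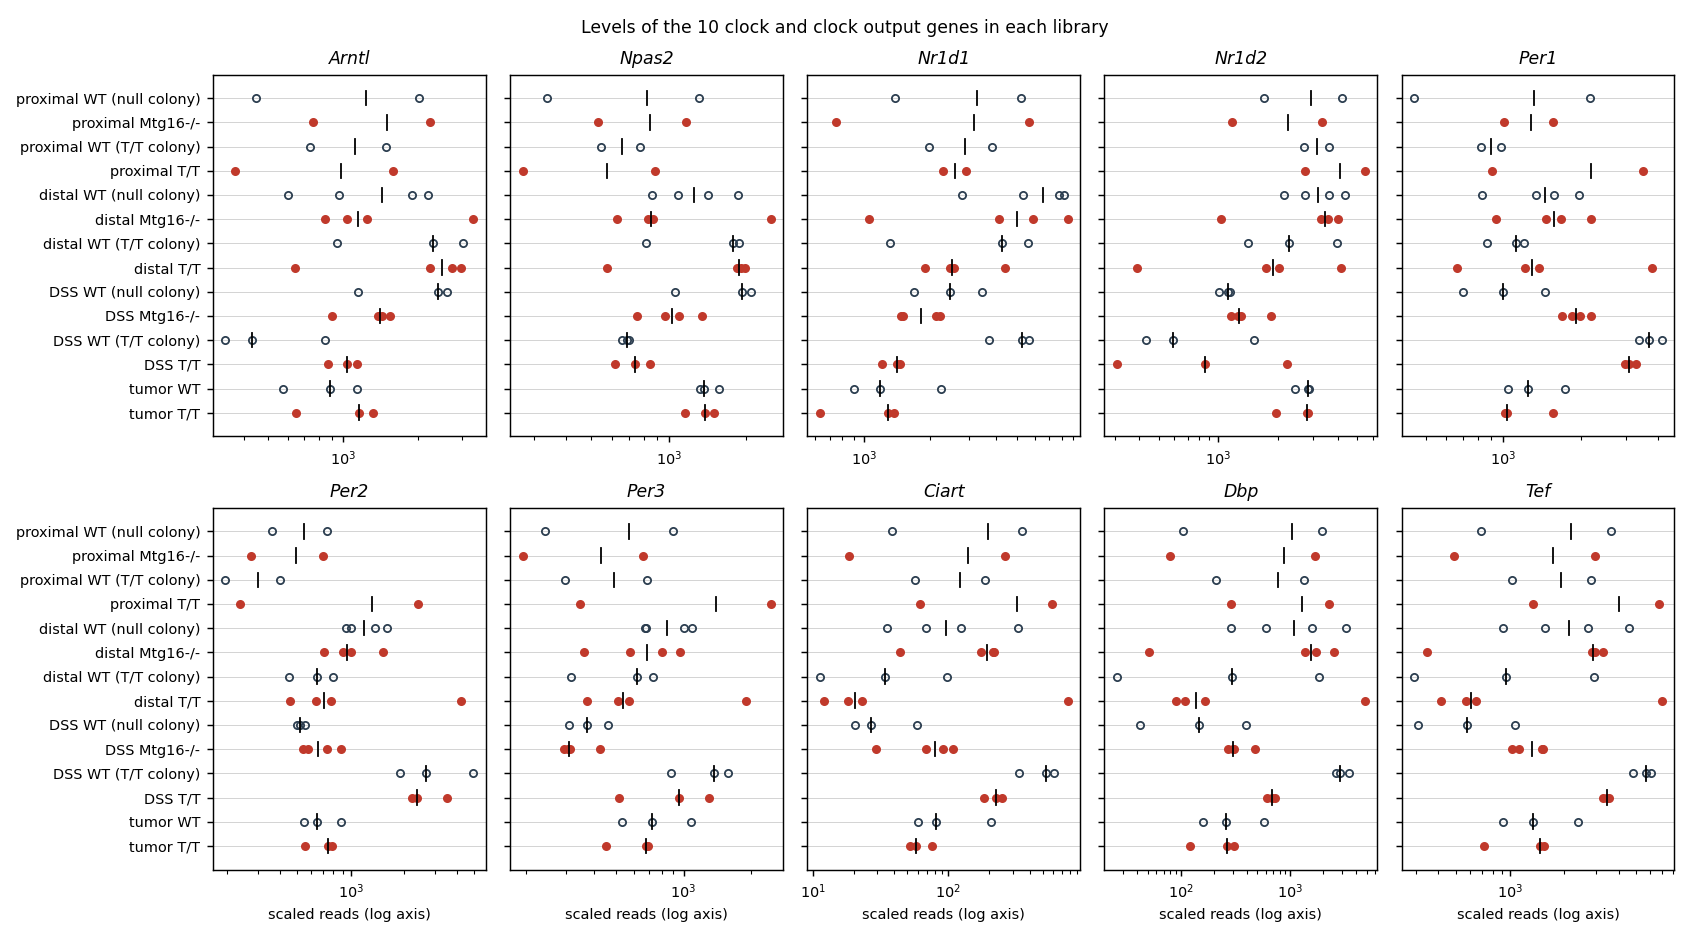
Scaled reads (log axis) of each of the 10 genes in each of the 42 libraries, by group. Open circles are WT libraries, filled circles mutant libraries, and black ticks group medians. Dbp and Ciart spread over the widest ranges within single groups, with within-group SDs of 1.91 and 1.47 on the log2 scale.

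The 10 genes moved together from library to library along the 2 arms of the loop. After each gene's group means were taken out, all 29 pairs of genes within an arm correlated positively over the 42 libraries (Pearson's r 0.51 to 0.99), and all 16 pairs with 1 gene in each arm correlated negatively (r -0.93 to -0.55). The pair closest to each other was Dbp and Tef (r 0.987). These correlations are descriptions, and the 42 points share requests and scaling.

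Arntl against Dbp, the members with opposite roles and wide ranges, was the 1 pair tested, chosen with earlier results of these data known. Over the 36 libraries other than the 6 after DSS of the T/T colony, where the genes were chosen, Pearson's r was -0.936 and Spearman's rho -0.951, each with p = 1e-05, the smallest that 100000 permutations within groups could give. Without the 2 of these farthest from the median of Dbp (Mtg16-/- library 3 and T/T library 4 of the distal baseline groups) r was -0.920. Over all 42 libraries r was -0.915 and rho -0.926, given as a description. Within request 5094 r was -0.944 (n = 11, exact permutation p = 0.00694) and rho -0.909 (exact permutation p = 0.0104), so both passed 0.05. In request 6217 r was -0.851 (n = 7, exact permutation p = 0.0139) and passed, whereas rho was -0.75 (exact permutation p = 0.167) and did not. In request 5698 neither passed, with r -0.872 and rho -0.886 (n = 6, exact permutation p = 0.0833 for each). In request 4149 r was -0.980 and rho -0.810 (n = 8), but its 16 arrangements cannot give a p below 0.0625, so it could not pass. Request 5740 holds the 6 libraries that chose the genes, and its r of -0.652 is a description. Request 5582, with 4 libraries, was too small for a value.

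**Figure D2:**
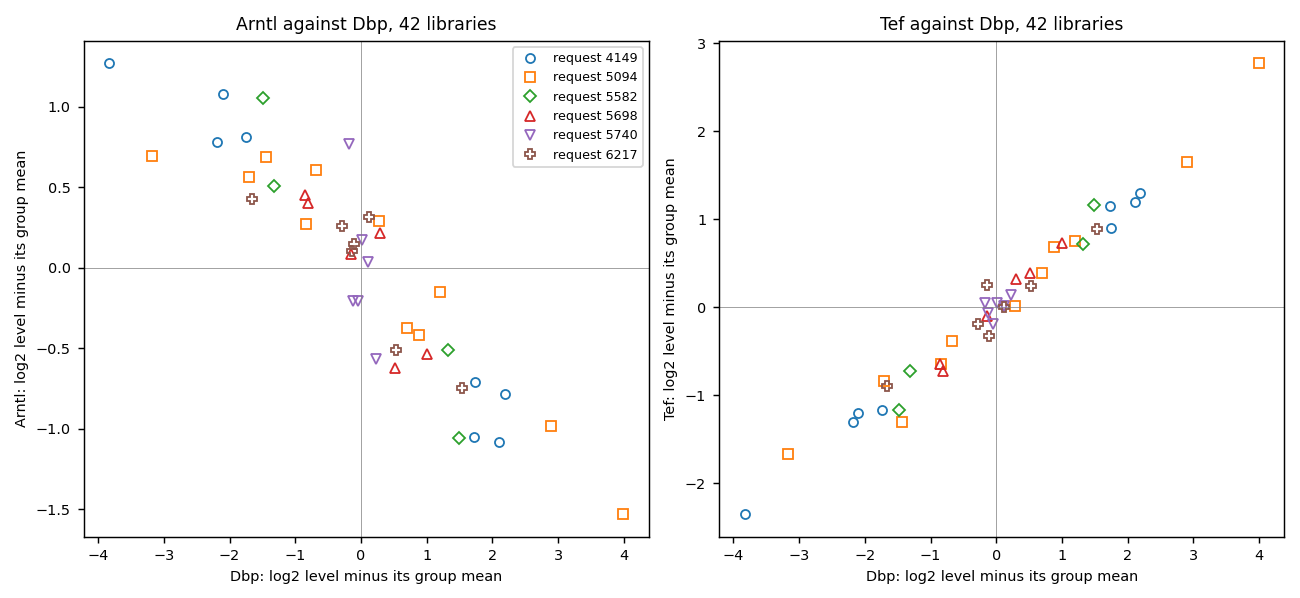
Deviation of log2 scaled reads from the group mean for Arntl (left, y axis) and Tef (right, y axis) against Dbp (x axis), 1 point per library, with a symbol per request. Arntl falls as Dbp rises (r -0.915), and Tef rises with Dbp (r 0.987).

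Genes outside the list whose levels followed Dbp were looked for among 11960 genes with a mean of at least 100 scaled reads. The 8 with the highest r were Spint1 (0.895), Slc2a5 (0.894), Cipc (0.886), Lnx1 (0.881), Bhlhe40 (0.872), Fam53b (0.866), Tns4 (0.847) and Fam234a (0.817). Cipc and Bhlhe40 encode known repressors of the CLOCK-BMAL1 pair, Spint1 a protease inhibitor of epithelia and Slc2a5 the fructose transporter GLUT5. The 8 with the lowest r were Ube2t (-0.873), Nfil3 (-0.867), Ska1 (-0.857), 9130008F23Rik (-0.843), E2f2 (-0.826), Pif1 (-0.825), Ankle1 (-0.823) and Pbk (-0.816). Nfil3 encodes a repressor that binds the same D-boxes as DBP, and Ube2t, Ska1, E2f2 and Pbk are known from DNA repair, mitosis and the cell cycle. With Arntl, 6 of the 8 highest genes for Dbp were among the 8 lowest (all but Tns4 and Fam234a; the others were Blnk and Rab11b), and 4 of the 8 lowest for Dbp were among the 8 highest (Nfil3, Pbk, Ska1 and 9130008F23Rik; the others were Dipk1a, Rnf125, 1700012D01Rik and Leo1). Against Dbp, the cryptochrome gene Cry2 had r 0.751, its relative Cry1 -0.649 and Clock -0.219. Of 6 glucocorticoid-responsive genes, Fkbp5 had 0.722 and the other 5 had 0.062 (Dusp1) to 0.402 (Zbtb16).

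**Figure D3:**
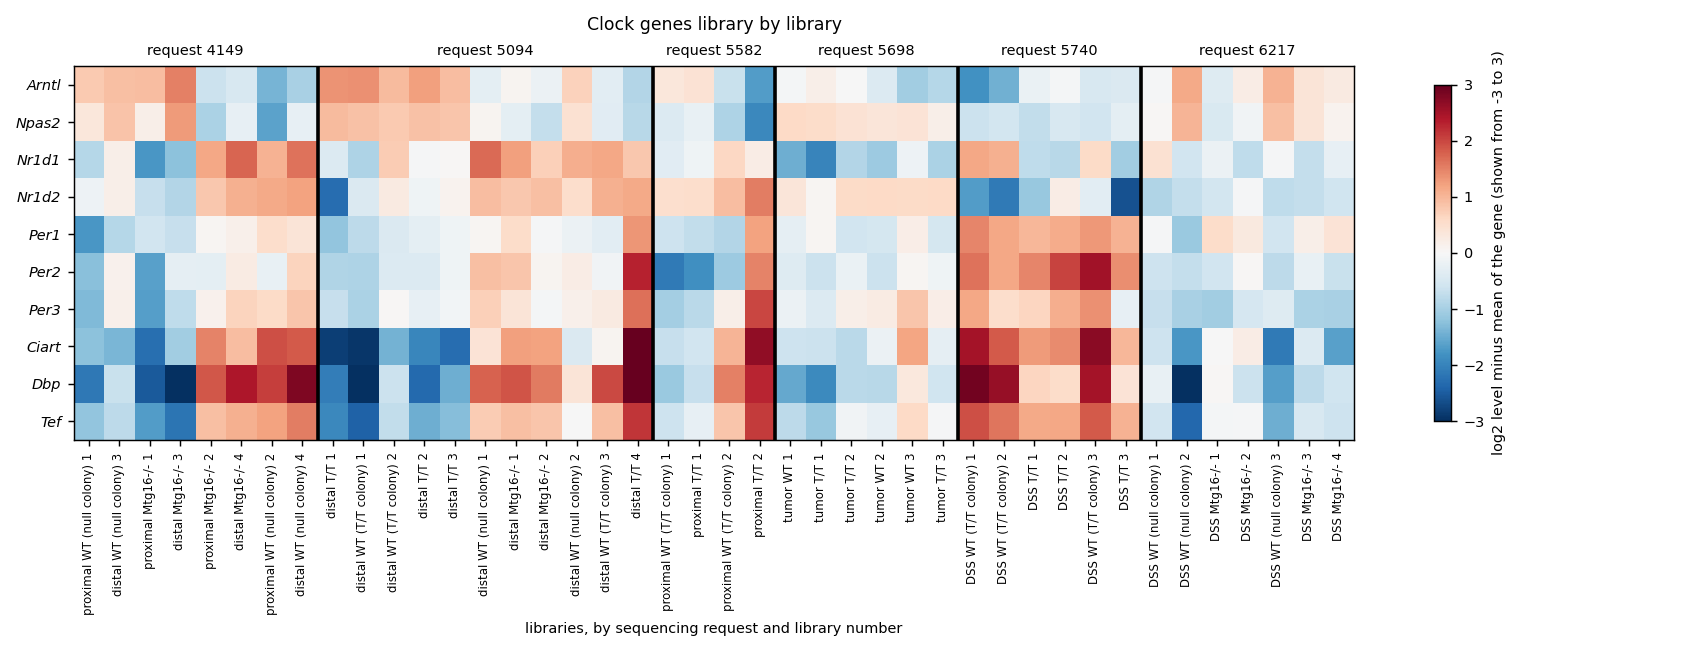
Log2 scaled reads of the 10 genes minus each gene's mean, for the 42 libraries in order of request and library number (black lines separate requests). Libraries of 1 group lie at opposite ends: Dbp was 51.4 scaled reads in distal Mtg16-/- library 3 and 2496 in distal Mtg16-/- library 4, both of request 4149.

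In the proximal colon at baseline, low and high libraries occurred in both genotypes. Dbp was 100.5 and 1871 in the 2 WT libraries and 78.3 and 1629 in the 2 Mtg16-/- libraries. Arntl ran the other way, with 1943 and 430.0 in WT and 2179 and 729.5 in Mtg16-/-. Library 1 of each genotype was thus low in Dbp and high in Arntl, and library 2 the reverse. In the T/T colony Dbp was likewise 185 and 1146 in WT and 251 and 1989 in T/T, and Per2 was 171 and 347 in WT and 206 and 2106 in T/T. With such spread, Dbp differed by -0.28 ± 1.66 (log2 fold change ± SE) between Mtg16-/- and WT and by 0.62 ± 1.12 between T/T and WT. The 10 genes ran from -0.72 to 0.46 in the former and from -0.44 to 1.43 in the latter comparison. By limma, at a Benjamini-Hochberg adjusted p of 0.05, 0 of the 10 genes were called in either comparison, 0 of them at an unadjusted p under 0.05, where 0.0645% and 0.232% of all genes tested were called. The groups of all 10 genes overlapped in both comparisons, while 35.6% and 45.5% of all genes had groups that did not. Proximal T/T library 2 held 505 fibroblast and 634 smooth muscle marker reads (scaled reads), against at most 87 and 24 in the other proximal libraries of its colony. Proximal Mtg16-/- library 1 held 570 and 1686, against at most 197 and 59. The part of these cells in the clock levels was not tested.

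In the distal colon at baseline, Mtg16-/- and WT libraries covered the same wide range. Dbp was 1462, 555, 267 and 2997 in the WT and 1576, 1273, 47.4 and 2306 in the Mtg16-/- libraries. Nr1d1 was 7561, 4848, 2595 and 7201 in WT and 5379, 3809.7, 977 and 7837 in Mtg16-/-. The lowest Dbp and Nr1d1 and the highest Arntl (3080.4, against 561 to 2019 elsewhere) were all in Mtg16-/- library 3. Dbp differed by -0.39 ± 1.25 on the log2 scale, with a 95% interval of -3.24 to 2.47, and Arntl by 0.15 ± 0.52, within a range of -0.53 to 0.46 over the 10 genes. Of the 10 genes 0 were called by limma, 0 by edgeR and 0 by DESeq2, with 0 at an unadjusted p under 0.05 by each tool, against 0.239% of all genes by limma. None had groups without overlap, against 3.75% of all genes.

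T/T and WT distal crypts at baseline also overlapped in all 10 genes. Dbp was 92.3, 76.5, 140.1 and 4002 in the T/T and 21.9, 249 and 1530.2 in the WT libraries. Ciart was 10.2, 19.4, 15.3 and 638 in T/T and 9.4, 28.4 and 82 in WT, and Per2 was 383, 537, 651 and 3516 in T/T and 377, 543 and 668 in WT. The 3 lower T/T libraries and 2 of the 3 WT libraries were thus low in Dbp, and T/T library 4 was far above all others in Dbp, Ciart and Per2. That library also held more fibroblast and smooth muscle marker reads (1016 and 986 scaled reads, against at most 207 and 89 in the other distal baseline libraries), and more plasma cell and myeloid marker reads (2025 and 1027, against at most 929 and 734), and the part of these cells in its clock levels was not tested. Dbp differed by 0.29 ± 1.78 on the log2 scale (95% interval -3.88 to 4.47), and by -1.03 without T/T library 4. The 10 genes ran from -0.59 to 0.68. By each of limma, edgeR and DESeq2, 0 of the 10 genes were called and 0 had an unadjusted p under 0.05, against 0.0369% of all genes called by limma. All 10 overlapped between groups, while 7.7% of all genes did not. None of the 10 genes was called by limma for a difference between the Mtg16-/- effects in the proximal and distal colon (0.00683% of all genes) or between the Mtg16-/- and T/T effects in the distal colon (0.00683%), and none had an unadjusted p under 0.05 in either.

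Between colon segments, 2 of the 10 genes were called, both higher in distal than in proximal WT crypts. Per2 was 1452, 888, 840.1 and 1246 in distal and 319 and 657 in proximal crypts of the Mtg16-/- colony, and 401, 579.8 and 724 in distal and 176 and 360.4 in proximal crypts of the T/T colony. Within each colony all distal libraries were above all proximal ones, and over both colonies the segments overlapped. Per2 was higher by 1.25 ± 0.36 on the log2 scale (limma, adjusted p = 0.0124; exact two-sided permutation p = 0.0182 over 330 groupings), and it was called within either colony alone. In the T/T colony the proximal WT libraries were all of request 5582 and the distal ones all of request 5094, so segment and request cannot be told apart there. In the Mtg16-/- colony the proximal WT libraries were of request 4149 and the distal ones of requests 4149 and 5094.

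Npas2, the partner of BMAL1 in place of CLOCK, was 981, 1265, 1661, 784, 1674, 1596 and 739 in the distal and 1167, 301, 692 and 489.8 in the proximal WT libraries. It was higher by 1.00 ± 0.33 (limma, adjusted p = 0.0258; exact two-sided permutation p = 0.0303), with segments that overlapped. The call for Npas2 was lost without proximal WT library 2 of either colony, within each colony and with the request as a covariate, and that for Per2 without proximal WT library 1 of the T/T colony and with the request as a covariate. Of all genes tested, 42.1% were called between segments, 20.1% higher and 22% lower in distal crypts, so the 2 of 10 clock genes that were higher stood at the background and 0 of 10 were lower. The segments did not overlap in 30% of all genes and in 0 of the 10. Dbp differed by 0.14 ± 1.16 and Arntl by 0.58 ± 0.46 between segments, neither of them called, and the 10 genes ran from -0.79 to 1.25. Markers of other cells also differed between segments, with 3 of 3 T cell and 3 of 3 plasma cell markers lower in distal crypts (median -1.79 and -1.09 on the log2 scale) and 2 of 4 myeloid markers higher and 1 lower by limma, and their part in the clock gene differences was not tested.

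Among 9 other clock genes tested between segments, 2 were higher and 4 lower in distal crypts, beside the 20.1% and 22% of all genes. Clock (0.75) and Csnk1d (0.27) were higher on the log2 scale, and Rora (-1.57), Nfil3 (-1.16), Cry1 (-0.71) and Csnk1e (-0.39) were lower. Of 8 known clock output genes, Lonrf3 was higher (0.93), and Por (-0.54) and Nampt (-0.39), an enzyme of NAD synthesis, were lower. These 3 of 8 were near the 42.1% of all genes. Of 6 genes that glucocorticoids induce, 4 were called: Zbtb16 (4.81), Tsc22d3 (0.80) and Klf9 (0.62) were higher and Fkbp5 (-1.34) was lower.

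After DSS, the calls between Mtg16-/- and WT crypts of their colony depended on how libraries were paired. Without pairs, 0 of the 10 genes were called by limma and edgeR and 1 by DESeq2. When same-numbered libraries were compared, 6 were called by limma. Per1 was 1621, 788 and 1119 in the WT and 2426, 2072, 1924 and 2213 in the Mtg16-/- libraries, with no overlap. Tef was 1189, 349 and 641 in WT and 1668, 1709, 1273 and 1139 in Mtg16-/-, where WT library 1 was above Mtg16-/- library 4. Ciart was 65.9, 30.3 and 22.8 in WT and 101, 121, 78.1 and 32.6 in Mtg16-/-, with overlap through the same 2 libraries. These genes of the negative and output arm were thus mostly higher in Mtg16-/- crypts.

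The positive arm ran the other way. Arntl was 1285, 2950.3 and 2694 in WT and 996, 1548, 1745 and 1591 in Mtg16-/- libraries. Npas2 was 1177, 2369 and 2142 in WT and 832, 1076, 1528 and 1223 in Mtg16-/-. In both genes WT library 1 was low and lay within the Mtg16-/- range, and the other WT libraries lay above all Mtg16-/- libraries. Nr1d1, of the negative arm, was 3854, 1922 and 2747 in WT and 2451, 1649, 1717 and 2367 in Mtg16-/-, so it lay with the positive arm here.

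Libraries 1, 2 and 3 of both genotypes deviated together from their group means (correlations over genes of 0.554, 0.460 and 0.317). The number was therefore treated as a block, and Mtg16-/- library 4, which had no partner, added nothing to the difference there. The labels do not say what the number marks, so the pairing rests on these same data. The blocked fit also has few residual degrees of freedom. Library 1 of both genotypes shared a shift in base composition (-0.87 in WT and -0.90 in Mtg16-/-), whose part in these correlations was not tested. By limma with this block, Per1 rose by 0.92 ± 0.16 on the log2 scale (adjusted p = 0.00931), Tef by 1.26 ± 0.28 (adjusted p = 0.0294) and Ciart by 1.43 ± 0.34 (adjusted p = 0.0344), and each was higher in Mtg16-/- in 3 of 3 pairs. Arntl changed by -0.64 ± 0.13 (adjusted p = 0.0194), Npas2 by -0.71 ± 0.15 (adjusted p = 0.0227) and Nr1d1 by -0.52 ± 0.12 (adjusted p = 0.0357), each lower in 3 of 3 pairs. These 6 of 10 stood against 8.78% of all genes called in the same fit, 5.72% higher and 3.06% lower. Dbp (1.30, adjusted p = 0.0850), Per2 (0.46, adjusted p = 0.124) and Nr1d2 (0.36, adjusted p = 0.146) were higher in 3 of 3 pairs without being called by limma, and Per3 (-0.15, adjusted p = 0.704) was higher in 1 of 3.

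**Figure D4:**
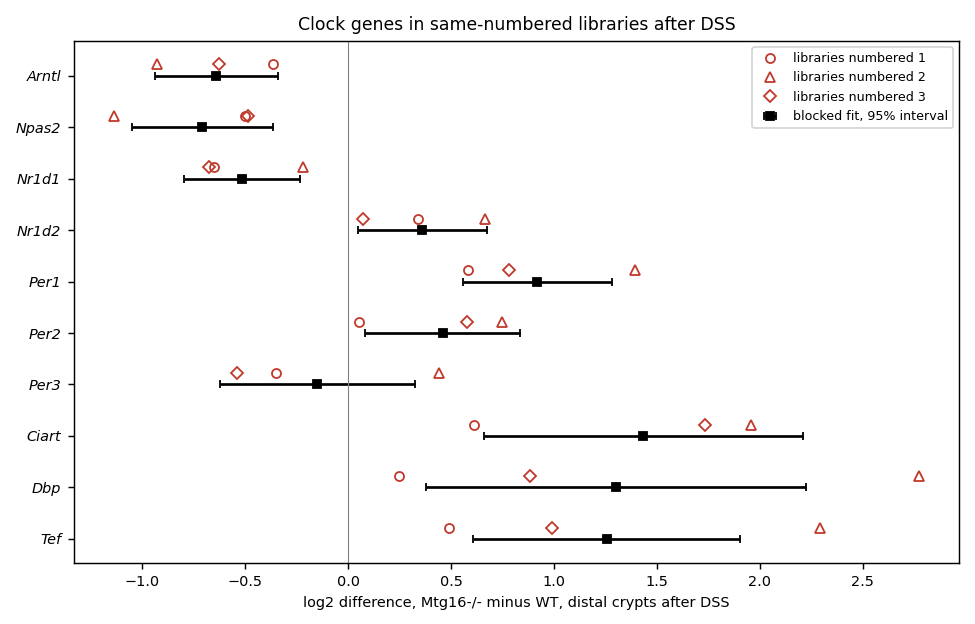
Log2 difference of normalized counts, Mtg16-/- minus WT, in distal crypts after DSS (x axis) for each gene (y axis). Red symbols are the 3 same-numbered pairs of libraries, and black squares with bars are the blocked estimates with 95% intervals. Per1 lies at 0.92 and Arntl at -0.64, with all 3 pairs on the same side of 0, and Dbp has the widest range of pairs (0.25 to 2.77).

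Without the block, 0 of the 10 genes were called by limma and 0 by edgeR, against 0.629% of all genes by limma, and 3 and 4 had an unadjusted p under 0.05. DESeq2, which called more of all genes than limma did (counts given below), called Per1 alone (adjusted p = 0.0141). The groups of 2 genes, Per1 (exact two-sided permutation p = 0.0286) and Nr1d2 (exact two-sided permutation p = 0.0571), did not overlap, beside 11.4% of all genes. Dbp was 440.0, 47.9 and 165 in WT and 522, 333, 305 and 339.9 in Mtg16-/-, so the 4 Mtg16-/- libraries lay within the WT range apart from library 1. With the block, leaving out both libraries numbered 1, 2 or 3 left 5, 3 and 5 genes called.

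Other measures moved with genotype in these libraries. The summed level of 5 myeloid markers was 780 to 3065 scaled reads in WT and 5270 to 16986 in Mtg16-/-, and 1 of the 5 was called without the block. That of 5 fibroblast markers was 349 to 437 in WT and 401 to 3879 in Mtg16-/-, and that of 3 plasma cell markers was 260 to 477 and 428 to 1230, both with overlap and 0 called by limma without the block (smallest adjusted p = 0.314 and 0.160). Low-GC genes were shifted relative to high-GC genes by -0.87 in WT library 1, -0.90 in Mtg16-/- library 1 and -0.69 in Mtg16-/- library 4. The part of these cells in the clock gene differences was not tested, and with GC and length trends removed the block still gave 6 calls. Of 11 other clock genes, 8 output genes and 6 temperature-responsive genes 0 were called without the block, and of 6 glucocorticoid-responsive genes Sgk1 was higher (1.00, adjusted p = 0.0155 by limma). The marker and list counts here are from the fit without the block, which called 0 of the 10 genes. They are not comparable with the 6 calls of the blocked fit, for which no marker or list counts are given. Whether the Mtg16-/- effect after DSS differed from that at baseline was tested by limma, and 0 of the 10 genes were called (0.0273% of all genes), 0 of them at an unadjusted p under 0.05. Dbp had 1.65 ± 1.88 for that difference of effects.

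In the T/T colony after DSS, the contrast that chose the genes, Dbp was 3600.1, 3017 and 2572 in the WT and 716, 691 and 627 in the T/T libraries. Nr1d1 was 5832, 5546 and 3637 in WT and 1444, 1438 and 1224 in T/T. Ciart was 545, 350.0 and 594 in WT and 221, 253 and 187 in T/T. None of the T/T libraries reached the lowest WT library in these genes, and the same held for Tef (6233, 5074 and 5566 against 3393, 3591 and 3325) and Per1 (4279, 3531 and 3611 against 2927, 3314 and 3116). Arntl was the reverse, with 349, 455 and 834 in WT and 1015, 1155 and 886 in T/T. The log2 differences, T/T minus WT, were -2.16 for Dbp, -1.84 for Nr1d1, -1.14 for Ciart, -0.71 for Tef, -0.28 for Per1 and 0.99 for Arntl. Markers of other cells separated the same libraries: the summed level of 5 myeloid markers was 552 to 1302 scaled reads in WT and 1921 to 2283 in T/T, and that of 3 plasma cell markers was 222 to 379 in WT and 489 to 691 in T/T. The part of these cells in the clock gene levels was not tested.

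The remaining genes of this contrast overlapped between genotypes. Per2 was 2753, 2012 and 4850.4 in WT and 2333, 3548 and 2263 in T/T, and Per3 was 1419, 927 and 1541 against 935, 1321 and 523. Npas2 was 680.4, 737 and 678 against 607, 751 and 856, so it did not follow Arntl. Nr1d2, whose gene is low in GC, was 613, 455 and 1486 in WT and 838, 2233 and 312 in T/T, within each genotype in the order of the shifts in base composition given above, and its log2 difference turned from 0.16 to -0.43 with GC and length trends removed. Those of Dbp and Nr1d1 were then -2.01 and -1.71. In all, 6 of the 10 genes had groups without overlap, where 13.7% of all genes did and 0% were called by limma, and since this contrast chose the genes nothing is read from that count. The T/T libraries lay within 627 to 716 for Dbp, whereas at baseline T/T libraries had run from 76.5 to 4002, but in Nr1d2 and Per3 they were 7.16-fold and 2.52-fold apart.

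**Figure D5:**
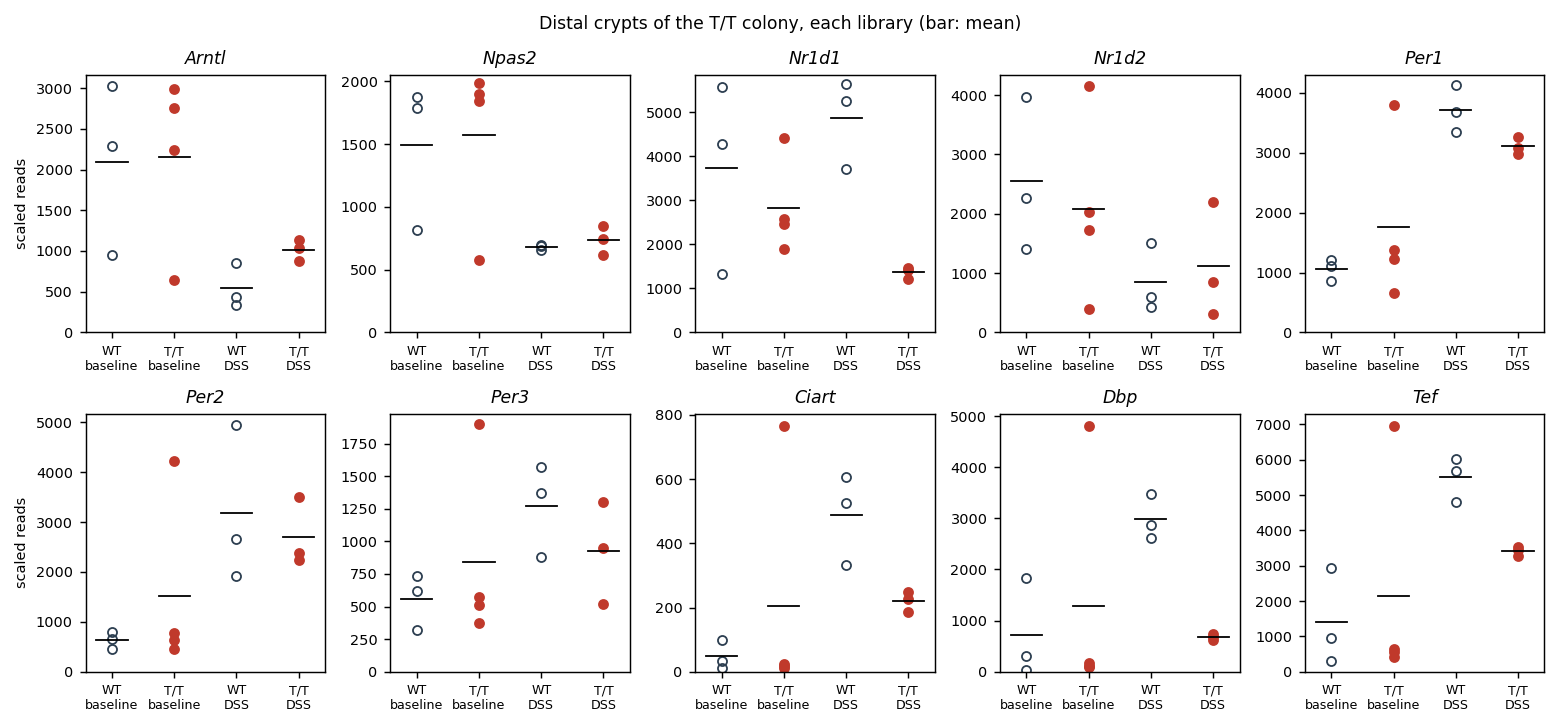
Scaled reads (linear axes from 0) of the 10 genes in distal crypts of the T/T colony, each circle a library and each bar a mean, for WT (open) and T/T (filled) at baseline and after DSS. After DSS Dbp lies between 2621 and 3478 in WT and between 619 and 729 in T/T, and at baseline between 26.2 and 4807 over both genotypes.

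From baseline to DSS, the log2 differences of all genes but Nr1d2 had opposite signs in WT mice of the 2 colonies. This contrast between colonies was not tested, and no share of all genes with opposite signs is given. In the Mtg16-/- colony the differences of Per1 (-0.44 ± 0.45) and Npas2 (0.37 ± 0.46) were smaller than their SE. In 2 genes, Per2 and Per3, the groups lay apart in opposite directions in both colonies, beside 1.83% of all genes. Since the libraries of the T/T colony chose the genes, nothing is read from that count or from the signs. In the T/T colony, where the libraries after DSS had chosen the genes and no test is given, Dbp was 25.5, 286 and 1768 at baseline and 3312, 2798 and 2436 after DSS in the table of that comparison. Per2 was 438, 623 and 771 at baseline and 2533, 1866 and 4594 after DSS, and Per1 was 842, 1074 and 1168 and then 3937, 3275 and 3419.7. The 10 genes differed by log2 values of 3.74 (Ciart), 3.57 (Dbp), 2.53 (Tef), 2.23 (Per2), 1.79 (Per1), 1.22 (Per3), 0.58 (Nr1d1), -1.05 (Npas2), -1.69 (Nr1d2) and -1.93 (Arntl). The groups of 8 genes did not overlap, where 55.3% of all genes did not and 35.6% were called. In T/T crypts the same step was 2.24 for Ciart, 1.75 for Tef, 1.42 for Per2, 1.16 for Dbp, -0.88 for Arntl and -0.99 for Nr1d1, in a comparison where 21.2% of all genes were called and 2 of 5 myeloid and 1 of 3 plasma cell markers were called higher by limma. Without T/T library 4 at baseline these were 3.59 for Ciart, 2.68 for Tef, 2.12 for Per2, 2.50 for Dbp, -1.39 for Arntl and -0.75 for Nr1d1. In WT, leaving out a library moved Dbp from 2.01 (without baseline library 1) to 5.04 (without baseline library 3) in scaled reads, and Nr1d1 was -0.028 without baseline library 1. In the WT step the shift of low-GC genes given above was 0.11 to 0.20 at baseline and -2.44 to -0.73 after DSS. There 2 of 5 myeloid, 2 of 4 fibroblast, 1 of 3 plasma cell and 2 of 5 epithelial markers were called higher by limma. With GC and length trends removed the log2 differences in WT were 3.45 for Ciart, 3.13 for Dbp, -1.78 for Arntl, -0.21 for Nr1d2 and 0.16 for Nr1d1. The part of the cells with these markers was not tested.

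In WT crypts of the Mtg16-/- colony the means of the negative and output arm were below those at baseline, and none passed the test over all groups. In scaled reads, Dbp was 1582, 607, 290 and 3219 at baseline (median 1094) and 395, 42.3 and 148 after DSS, so 2 of the 3 libraries after DSS lay below all 4 at baseline. The log2 differences were -2.83 ± 1.38 for Dbp, -1.83 ± 0.86 for Tef, -1.61 ± 1.06 for Ciart, -1.51 ± 0.60 for Nr1d2, -1.20 ± 0.57 for Per2, -1.19 ± 0.60 for Nr1d1 and -1.16 ± 0.55 for Per3, with 0.63 ± 0.60 for Arntl. None was called by limma in the fit over all 14 groups, where 6.5% of all genes were, and 5 had an unadjusted p under 0.05 (Dbp, Nr1d2, Per2, Per3 and Tef). With the spread taken from these 2 groups alone, where 4.26% of all genes were called by limma, 3 were, Nr1d2 (adjusted p = 0.00230), Per2 (adjusted p = 0.00654) and Per3 (adjusted p = 0.0152). Baseline and DSS libraries came from different requests in both colonies, so request and treatment cannot be told apart.

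In Mtg16-/- crypts the same step gave -1.18 ± 1.27 for Dbp, -1.09 ± 0.55 for Nr1d1, -0.93 ± 0.51 for Per3 and -0.10 ± 0.55 for Arntl, and the 10 genes ran from -1.18 to 0.36. None of the 10 genes was called by limma, and 0 had an unadjusted p under 0.05, against 32.1% of all genes called. Without Mtg16-/- library 3 of the baseline group, the one low in Dbp, Nr1d1 was called (-1.71, adjusted p = 0.0171 by limma). Leaving out a library moved the log2 difference of Dbp from -2.46 to -0.60. In this step 5 of 5 myeloid and 4 of 5 fibroblast markers were higher by limma (median 4.29 and 3.51 on the log2 scale) and 3 of 5 epithelial markers lower, and in WT of the same colony 2 of 5 myeloid markers and 1 of 5 fibroblast markers were higher. The part of these cells in the clock gene levels was not tested.

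Of 12 other clock genes in this step, Hlf (2.63), Csnk1e (0.65) and Timeless (0.56) were higher and Fbxl21 (-1.41), which encodes an F-box protein that binds cryptochromes, was lower in Mtg16-/- crypts by limma. In WT of the same colony Hlf (1.96), Bhlhe41 (1.90) and Csnk1e (0.53) were the genes called, all higher. Of 6 temperature-responsive genes the heat shock genes Hspa1b (2.42 and 2.45) and Dnajb1 (0.79 and 0.47) were higher in Mtg16-/- and WT. Among the output and glucocorticoid-responsive genes Tspan4 (1.53) and Dusp1 (1.41) were higher and Usp2 (-1.24) and Klf9 (-0.75) lower in Mtg16-/-. These lists stood against 32.1% of all genes called in Mtg16-/- and 6.5% in WT.

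In tumors the clock genes did not separate T/T from WT. Dbp was 159, 331 and 399 in T/T and 207, 338 and 757 in WT tumors, and Arntl was 1721, 1463 and 844 against 1485, 1149 and 754. Ciart was 75.9, 65.7 and 99.7 in T/T and 77.9, 107 and 275 in WT. The range of each group held values of the other, and all 10 genes overlapped, while 5.52% of all genes did not. The log2 differences ran from -0.73 (Ciart) to 0.24 (Arntl). By limma, edgeR and DESeq2, 0 of the 10 were called and 0 had an unadjusted p under 0.05, and limma called 0% of all genes.

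Compared with distal baseline crypts, Nr1d1 was lower in T/T tumors, by a call that several alternative settings removed. In scaled reads it was 906, 1185 and 2251 in WT tumors and 631, 1294 and 1369 in T/T tumors, against 1319, 4282 and 5577 in WT and 1898 to 4414 (median 2515) in T/T crypts. All T/T tumors thus lay below all T/T crypts, and the share of all genes with such a gap is not given. The log2 difference was -1.38 ± 0.60 in T/T (limma, adjusted p = 0.0499), at the threshold and lost with a pseudocount of 0.1 (adjusted p = 0.0507), without a filter (adjusted p = 0.0509), with GC and length trends removed (adjusted p = 0.0862) or without any 1 of the 3 T/T tumors or T/T crypt libraries 2, 3 and 4. It was -1.23 ± 0.64 in WT (adjusted p = 0.108 by limma). This was 1 of the 10 genes in T/T and 0 in WT, where 56.5% (27% lower) and 51.7% of all genes were called, so both shares lay below the background. None of the other 9 passed in T/T, and none of the 10 had an unadjusted p under 0.05 in WT by limma. Tumors were dissected whole and crypts were not, with the fibroblast levels given above, so tissue makeup, request and tumor state cannot be told apart.

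Of 12 other clock genes tested, 7 were higher in WT tumors and 8 in T/T tumors than in crypts, and 0 were lower in either by limma. These stood beside 51.7% and 56.5% of all genes called, of which the higher part was 26.5% and 29.5% of all genes. On the log2 scale in WT and T/T tumors, Bhlhe41 was higher by 3.75 and 3.90, Rora by 3.65 and 4.52, the DBP relative Hlf by 3.32 and 3.66, Csnk1e by 2.71 and 2.49, Fbxl21 by 2.38 and 2.59, Bhlhe40 by 1.37 and 1.02 and Timeless by 0.68 and 0.87. Nfil3 was called in T/T tumors alone (1.48), with no test of that difference. Of 8 output genes, Tspan4 was higher (3.85 and 3.60) and the deubiquitinase gene Usp2 lower (-2.98 and -2.87). Of 6 glucocorticoid-responsive genes, Dusp1 was higher (2.00 and 1.50) and Tsc22d3 lower (-1.08 and -1.36) in both, with Klf9 lower in WT (-0.995) and Fkbp5 in T/T tumors (-1.55). Of 6 temperature-responsive genes, Cirbp was higher in both (0.60 and 0.94), and in T/T tumors Rbm3 was higher (0.55) and Dnajb1 lower (-0.41).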

How the data were processed

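The tables hold signal values that the authors deposited as normalized counts. Per the methods and the submitters' processing notes, reads were trimmed with fastp 0.20.0, quantified with Salmon 1.3.0 against GENCODE vM21 (mm10), summed per gene with tximeta and divided by DESeq2 1.26.0 size factors (R 3.6.3). Each table also holds the authors' own test results (fold changes with their p-values), which were not used.

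Genes with a mean of at least 10 were tested on log2 (value + 1), within a table, by limma 3.58.1 (trend) in R 4.3.3, and called at 0.05 after Benjamini-Hochberg adjustment over all genes tested. Comparisons across tables and differences of effects used reads recovered from the values and TMM scaling by edgeR 4.0.16, in 1 limma fit over 14 groups. In 40 libraries 100.0% of the values lay within 0.1 of a whole read. In the other 2, library 2 of the proximal Mtg16-/- and library 2 of the proximal T/T crypts, no reads were recovered and normalized counts were used. The design had assumed counts and edgeR, which, with DESeq2 1.42.0, became alternatives. Spread, likeness and promoter letters were computed in Python 3.11.15. The tests were checked on simulated data. Same-numbered libraries were tested as pairs only after DSS in the Mtg16-/- colony, where each pair correlated above 0.1, and what a number marks is not in the labels.

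The rule for named genes took the 10 genes in every comparison, list genes where called (outside DSS against baseline in the T/T colony), and the 8 genes most and least like Dbp and Arntl. Where groups overlapped, some of the 10 are given only by range and count, and those named beside Dbp and Arntl there were picked after their values were seen. The members and lists were chosen with earlier results of these data known. The results of 2 genes of a list are left out.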

Additional observations from a re-analysis of the deposited data

Results flagged for a closer look

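The values of each gene were examined in each group of 4 to 10 libraries, 60 sets in all. In 12 of them 1 library had a gap to the nearest other that was large for the range (Dixon's test at the 95% level, which chance passes in about 1 of 20), and most came from 2 libraries. The genes moved together and some libraries stood in more than 1 group, so the sets are not separate. The 12 are therefore not comparable with that rate. T/T library 4 of the distal baseline crypts had 4002 normalized counts of Dbp against 76.5 to 140.1 in the other T/T libraries, 638 of Ciart against 10.2 to 19.4, 5800.3 of Tef against 346 to 545, 3516 of Per2 against 383 to 651, 1581 of Per3 against 313 to 479 and 480.5 of Npas2 against 1546 to 1664. Mtg16-/- library 3 of the distal baseline crypts was its mirror image, with 3080.4 of Arntl against 783 to 1145, 2290.4 of Npas2 against 582 to 805 and 317 of Tef against 2623 to 3038. Among all WT distal baseline libraries, library 4 of the Mtg16-/- colony had 301 of Ciart against 10 to 111. After DSS, Mtg16-/- library 2 had 2059.6 of Nr1d2 against 1304 to 1426, and Mtg16-/- library 1 had 522 of Dbp against 305 to 339.9.

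In 2 genes all WT libraries after DSS lay below all at baseline in the Mtg16-/- colony and above all at baseline in the T/T colony, with separate libraries at each stage, beside 1.83% of all genes. The T/T colony libraries after DSS are among those that chose the genes. Per2 differed by -1.20 on the log2 scale in the Mtg16-/- colony and by 2.23 in the T/T colony, and Per3 by -1.16 and 1.22. The difference was not tested.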

How the results depend on the processing

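The number of the 10 genes called, the direction of Dbp and Arntl and that of every gene named were recomputed under the alternatives. Removal of GC and length trends, the pairs after DSS with GC removed or 1 pair left out, and leaving out T/T libraries 1 and 4 together, and the relation of Arntl with Dbp without 8 libraries, were added after seeing the data. edgeR and DESeq2 were not run for the proximal mutant tables.

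For WT segments, 2 genes were called, with 0 when the request was a covariate, 0 within request 4149, 1 within either colony (Per2), and 1 to 2 when a library was left out. For Mtg16-/- against WT after DSS, the replicate block turned 0 into 6, also 6 with GC and length trends removed, and 5, 3 and 5 without both libraries numbered 1, 2 or 3. DESeq2 gave 1 there, and leaving out a library gave 0 to 2, the 2 (Per1 and Tef) without WT library 1. For DSS against baseline, a fit of the compared groups only gave 3 in WT of the Mtg16-/- colony and 1 in Mtg16-/- crypts (Per3). In the latter, GC and length removal gave 1 (Nr1d1), and leaving out a library 0 to 1. For WT tumors against crypts, the compared groups only gave 1 (Arntl), and leaving out a library 0 to 1, the 1 being Nr1d1 without WT crypt library 1. For T/T tumors against crypts, the 1 call became 0 with a pseudocount of 0.1, no filter or GC and length removal, and 0 to 1 when a library was left out, where without T/T crypt library 4 the 1 was Arntl in place of Nr1d1. For T/T against WT in the proximal colon, leaving out a library gave 0 to 1 (Per1 without T/T library 1). The r of Arntl with Dbp within request 5698 was -0.872 and no longer passed, and it was -0.980 in request 4149, too small to pass, and -0.652 in request 5740, not tested. The replicate block changed no other call of a member, and in tables other than that after DSS in the Mtg16-/- colony its pairs were not all above 0.1 or were only 2. With it, 3 and 4 of the 10 genes had an unadjusted p under 0.05 in the proximal Mtg16-/- and T/T comparisons and 2 and 1 in the distal ones, none of them called by limma.

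The sign of Dbp or Arntl turned with single libraries in 6 comparisons without a call for them. Leaving out a library moved Dbp from -2.46 to 1.90 and Arntl from -0.62 to 1.55 (Mtg16-/-, proximal), Dbp from -0.97 to 0.89 and Arntl from -0.27 to 0.42 (Mtg16-/-, distal), Dbp from -0.88 to 2.11 and Arntl from -1.49 to 0.61 (T/T, proximal), Dbp from -1.29 to 1.74 and Arntl from -0.51 to 0.50 (T/T, distal), Dbp from -0.60 to 0.86 (WT segments), and Dbp from -0.87 to 0.059 and Arntl from -0.023 to 0.54 (tumors). Within request 5094 the distal Mtg16-/- values were 0.65 for Dbp and -0.24 for Arntl. For distal T/T, the replicate block gave -1.03 and 0.50, leaving out T/T libraries 1 and 4 gave -0.98 and 0.41, and edgeR and DESeq2 gave 0.044 and 0.047 for Arntl. For WT segments Dbp was -0.73 with the block and -1.11 within the T/T colony, and Per3 after DSS was 0.044 without both libraries numbered 3. The cause was not tested.

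Counts over all genes moved by more than 1.5 times with the block (9 to 32 and 32 to 151 in the proximal tables, 33 to 1 and 5 to 0 in the distal ones, 91 to 1271 after DSS), with DESeq2 (33 to 202, 5 to 53, 91 to 727, and 0 to 24 in tumors and 0 to 331 after DSS for T/T), with GC and length removal (91 to 289, 951 to 1629 and 5 to 8), with no filter (32 to 2, proximal T/T) and with the compared groups only (951 to 592). Distal Mtg16-/- crypts gave 8 of 33 with the request as a covariate and 2 and 0 within requests, and WT segments 3189 of 5824 with it, 2014 within request 4149 and 3540 within the Mtg16-/- colony. After DSS the block with GC removed gave 1350, and without 1 pair 670, 1442 and 1025. The proximal minus distal difference went from 1 to 8 (pseudocount), 6 (no filter) and 9 (GC). Leaving out a library gave 6 to 22 and 0 to 27 (proximal), 2 to 143 and 0 to 8 (distal) and 28 to 106 (after DSS). In DSS against baseline it gave 356 to 1061 in WT of the Mtg16-/- colony and 2670 to 5273 in Mtg16-/- crypts. For differences of effects it gave 0 to 23 (after DSS minus baseline), 1 to 6 (proximal minus distal) and 1 to 2 (Mtg16-/- minus T/T). In groups of 2 to 4 libraries the SD of log2 Dbp ran from 0.12 (T/T after DSS) to 3.09 (proximal Mtg16-/-), so a missing call does not show equal levels.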

Other observations

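Library numbers within a request, whose meaning the labels do not give, ran alongside the level of Dbp in some requests. In request 4149 the libraries numbered 1 to 4 had 104, 290, 80.5 and 51.4 scaled reads of Dbp, and those numbered 9 to 12 had 1691, 2496, 1953 and 3219. Both sets held WT and Mtg16-/- libraries of both segments. In request 5094 the libraries numbered 1 to 5, from the T/T colony, had 110.1, 26.2, 297, 91.2 and 167, and those numbered 7 to 12 had 1582, 1720.0, 1376, 607, 1829.7 and 4807, the last 2 from the T/T colony and the first 4 from the Mtg16-/- colony. In request 5582 numbers 1 to 4 had 212, 288, 1324 and 2266, WT and T/T in turn.

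In the 3 requests after DSS or with tumors, Dbp was 122 to 576 in request 5698, 42.3 to 474 in request 6217, and in request 5740 it was 2621 to 3478 in WT and 619 to 729 in T/T libraries. Whether these levels follow a time of harvest was not tested, since the sources used here give none.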
